A study of Mus musculus with 12 samples.

Results

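Trp53, the mouse gene for p53, and 9 genes that p53 is known to activate directly were followed across mammary tumors. The 10 genes were taken by symbol from the deposited expression table, which lists 47593 genes, and each symbol had 1 row. The table holds 12 mammary tumors from 9 MADM-mutant mice, of which 7 gave 1 tumor each, while tumors 3 and 4 shared a mouse and tumors 10, 11 and 12 shared a further one. The labels give each of these sister tumors a code of its own within the mouse, whose meaning they do not state. All tumors were of one condition, untreated and without a normal gland for comparison, so the values below describe levels and how they varied from tumor to tumor, and not a change on loss of p53. Values are TPM, a scale on which the reads of a gene are divided by its length and each tumor sums to the same total.

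Per the labels the animals carried the MADM RG;GR alleles on a mixed background. In the study's cross, named MADM-Brca1-p53; MMTV-Cre, the mutant Brca1 and p53 alleles were bred onto the MADM-TG copy of chromosome 11, the MADM-GT copy was the intact partner, and the MMTV promoter drove Cre mainly in mammary epithelium. MADM (mosaic analysis with double markers) makes rare dividing cells of a heterozygous animal give GFP-labelled daughters without functional Brca1 and p53. Each has an RFP-labelled wild-type sibling, and the surrounding cells stay heterozygous. By this design a piece of tumor can hold mutant cells together with stroma and immune cells that still have an intact p53 allele. The values here give no genotype for the cells of any tumor. A TPM value per gene does not separate the mutant transcript from the intact one, nor one cell type from another, and fewer cells of a type and less RNA per cell cannot be told apart.

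The p53 protein is a transcription factor that is kept at a low level by the ubiquitin ligase MDM2 and accumulates after DNA damage, oncogene activity or loss of telomeres. It binds DNA as a tetramer at response elements made of paired decamers, often in promoters or first introns, and switches on genes for cell cycle arrest, apoptosis, DNA repair and metabolic control. Mdm2 is itself a target, which closes a negative feedback loop. Many target genes also have p53-independent inputs, so their transcripts are found in cells without p53.

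Tumors 2 and 8 stood apart from the rest in cell type markers, and tumor 9 in cell cycle genes. The summed level of 7 epithelial marker genes was 1.61 TPM in tumor 2, where 2 of the 7 were at 0, and 159.6 TPM in tumor 8, compared with 3375 to 8305 TPM in the other 10 tumors. Tumor 2 had 4662 TPM over 5 B lymphocyte markers, against 11.6 to 333 TPM elsewhere, and had the lowest sum of the 7 fibroblast markers (89.7 TPM) and also of the 7 macrophage markers, which elsewhere summed to 2158 TPM or more. Tumor 8 had the highest sums of the same fibroblast and macrophage markers, 3222 and 5549 TPM. Sums of 5 genes each ranged over the tumors from 3.26 to 81.7 TPM for T lymphocyte, 50.2 to 167 TPM for endothelial, 12.4 to 351 TPM for adipocyte and 2.89 to 365 TPM for skeletal muscle markers. In tumor 9 all 10 genes of a list of cell cycle genes that p53 represses through p21 were at their lowest of the 12 tumors, beside 20.7% of all genes tested. When each tumor was rescaled by its median ratio to the others, log2 values shifted by -0.11 to 0.20, with the largest shift in tumor 9. The part of these differences in the p53 target levels was not tested, and results are therefore also given without the mice of tumors 2 and 9, and in places without the mouse of tumor 8.

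The promoters show where p53 recognition letters lie near these genes. RefSeq start-site windows on GRCm38.p6, reaching from 250 bases before to 50 bases after a start, matched 9 of the 10 genes in 12 windows, and Zmat3 had none. The p53 decamer was searched, a motif of 10 letters that reads the same on both strands, and it was found in 5 of the 12 windows, each from a different gene. It occurs in 8.36% of all 32851 windows in the RefSeq table. A pair of decamers with at most 13 bases between them was found in 1 window, that of the upstream Cdkn1a start, where 12 bases separate them. Such a pair occurs in 0.0731% of all windows. The stretches that hold a match are printed below with 10 bases on each side, on the strand of the gene, with the decamers in capitals, because they are the letters that p53 could read close to the start of these members. The Bax stretch is chr7:45467080-45467109 (minus strand), that of Mdm2 is chr10:117710925-117710954 (minus strand), that of Ccng1 is chr11:40755452-40755481 (minus strand), that of Trp53 itself is chr11:69580274-69580303 (plus strand) and that of Cdkn1a is chr17:29090896-29090947 (plus strand).
Cdkn1a: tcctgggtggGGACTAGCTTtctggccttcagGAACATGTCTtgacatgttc
Mdm2: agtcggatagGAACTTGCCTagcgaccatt
Ccng1: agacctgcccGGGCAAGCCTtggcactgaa
Bax: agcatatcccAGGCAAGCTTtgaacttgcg
Trp53: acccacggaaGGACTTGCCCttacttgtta

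Counted from the RefSeq start of its window, the first capital lies at -73 in Cdkn1a, -186 in Mdm2, -185 in Ccng1, -201 in Bax and -75 in Trp53. For Cdkn1a this is the upstream start, at 29090979. The other Cdkn1a window, around the start at 29093769, the windows of Phlda3, Sesn2 and Eda2r and the 3 windows of Bbc3 held no match. This says only that these letters are absent from those bases. A match is a description of letters and not evidence of binding.

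Trp53 transcript was present in every tumor. Trp53 (ENSMUSG00000059552, chromosome 11 from 69580359 to 69591873, plus strand) ranged from 30.2 TPM in tumor 9 through a median of 58.8 TPM to 74.2 TPM in tumor 6. The next lowest value was 37.7 TPM in tumor 7, and the other 10 tumors had 45.6 TPM or more. Over mice the level was 56.3 ± 14.9 TPM (SD, n = 9), above the mean level of 79.3% of the 16779 genes with a mean of at least 1 TPM, and its SD on the log2(TPM + 1) scale exceeded that of only 30.3% of them. When tumors were rescaled by the median ratio, tumor 9 remained the lowest at 34.7 and tumor 2 became the highest at 74.4. Tumors 3 and 4, from one mouse, had 62.5 and 63.4 TPM.

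**Figure D1:**
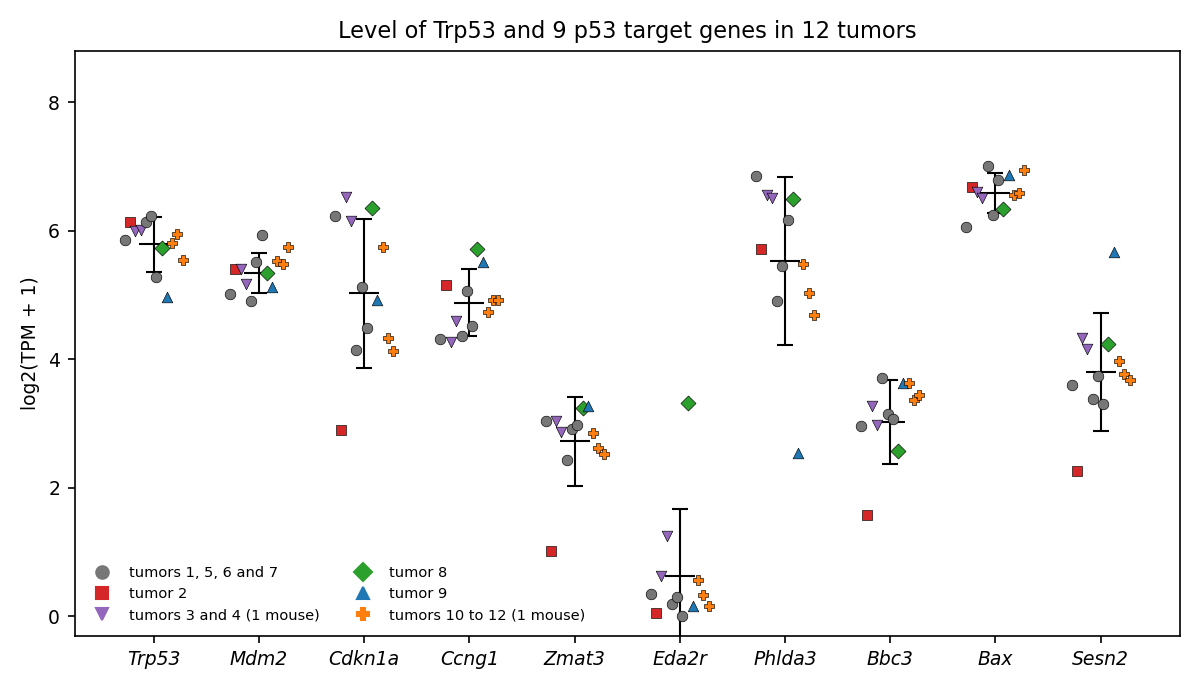
Level of Trp53 and 9 p53 target genes, as log2(TPM + 1) on the vertical axis, with 1 symbol per tumor placed from tumor 1 to tumor 12 within each gene, and the mean ± SD over 9 mice in black. Tumor 2 is the lowest symbol for Cdkn1a, Zmat3, Bbc3 and Sesn2, tumor 9 is the lowest for Trp53 and Phlda3, and tumor 8 stands alone at the top of Eda2r.

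Among the targets, the negative regulator Mdm2 was one of the steadiest. Mdm2, the ubiquitin ligase that marks p53 for degradation (chromosome 10 from 117688875 to 117710758, minus strand), ranged from 29.0 TPM in tumor 5 through a median of 41.4 TPM to 59.9 TPM in tumor 7, a 2.06-fold range. Its mean was 40.6 ± 9.37 TPM (SD, n = 9 mice). The log2 SD of Mdm2, 0.31, was larger than that of 11.7% of the genes tested. Tumor 7, the highest for Mdm2, was the second lowest for Trp53.

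Targets that act on the cell cycle differed widely in spread. Cdkn1a encodes the cyclin-dependent kinase inhibitor p21, which carries out p53-dependent arrest (chromosome 17 from 29090976 to 29100727, plus strand). Its lowest level was 6.45 TPM in tumor 2, the median 31.5 TPM and the highest level 90.9 TPM in tumor 3, a 14.1-fold range. Tumors 1, 3, 4 and 8 had 69.7 to 90.9 TPM, tumor 10 had 52.5 TPM, and the other 7 had 33.8 TPM or less. The mean was 41.3 ± 29.0 TPM (SD, n = 9 mice), and the log2 SD of 1.15 was larger than that of 83.1% of genes. Ccng1, which encodes cyclin G1 and feeds back on MDM2 (chromosome 11 from 40748552 to 40755311, minus strand), had its lowest level, 18.3 TPM, in tumor 3 and its highest, 51.6 TPM, in tumor 8, with a median of 27.4 TPM and a mean of 30.3 ± 11.7 TPM (SD, n = 9 mice). Tumor 3 was thus the highest for Cdkn1a and the lowest for Ccng1.

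The pro-apoptotic targets were abundant and steady in the case of Bax, and lower and more variable in the case of Bbc3. Bax, which opens the outer mitochondrial membrane (chromosome 7 from 45461697 to 45466898, minus strand), was the most abundant of the 10 genes at 96.9 ± 20.3 TPM (SD, n = 9 mice). It ranged from 65.5 TPM in tumor 1 through a median of 95.8 TPM to 127 TPM in tumor 5, a 1.95-fold range, and its log2 SD of 0.31 matched that of Mdm2 to 2 decimals. Rescaling by the median ratio placed the highest Bax value, 133.6, in tumor 9. Bbc3, the gene for the BH3-only protein PUMA (chromosome 7 from 16308393 to 16318205, plus strand), had a mean of 7.83 ± 3.18 TPM (SD, n = 9 mice). It was 1.97 TPM in tumor 2, 4.93 TPM in tumor 8, 8.26 TPM in the median and 12.1 TPM in tumor 5, so the lowest Bbc3 values lay in the same tumors that had the lowest epithelial marker sums. Rescaling by the median ratio placed its highest value, 13.1, in tumor 9.

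Phlda3 and Eda2r each had 1 tumor far from the rest. Phlda3 encodes a pleckstrin-homology protein that competes with AKT for membrane lipids (chromosome 1 from 135766119 to 135769136, plus strand). It was 4.85 TPM in tumor 9, 24.8 TPM in the next lowest tumor, 47.5 TPM in the median and 115 TPM in tumor 1, a 23.7-fold range and a mean of 58.7 ± 35.5 TPM (SD, n = 9 mice). Its log2 SD of 1.31 was the largest of the 10 and exceeded that of 87.4% of genes. Eda2r encodes a receptor of the TNF family that binds ectodysplasin A2 (chromosome X from 97333840 to 97377216, minus strand). It was listed at 0 in tumor 7 and had a median of 0.248 TPM. Its highest level was 8.96 TPM, in tumor 8, and the next highest, in tumor 4, was 1.37 TPM. Eda2r passed the filter of a mean of 1 TPM through tumor 8 alone, since its mean of 1.22 TPM over 9 mice was 0.256 TPM without the mouse of tumor 8. Its correlations below are therefore descriptions, and the counts of passing pairs and relations that include it are read with that limit.

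The remaining targets, Zmat3 and Sesn2, had their extremes in the same tumors. Zmat3 encodes a zinc-finger RNA-binding protein that acts on splicing (chromosome 3 from 32334792 to 32366014, minus strand). It was 1.02 TPM in tumor 2, and 4.42 to 8.72 TPM in the other 11 tumors with a median of 6.42 TPM over all 12 and the highest value in tumor 9, for a mean of 6.15 ± 2.34 TPM (SD, n = 9 mice). Sesn2, which encodes a sestrin that restrains mTORC1 and takes part in the leucine and oxidative stress responses (chromosome 4 from 132492032 to 132510501, minus strand), was 3.77 TPM in tumor 2, 12.5 TPM in the median, 19.1 TPM in the second highest tumor and 49.9 TPM in tumor 9. Its mean was 16.1 ± 13.5 TPM (SD, n = 9 mice). Both genes were thus lowest in tumor 2 and highest in tumor 9, also after rescaling by the median ratio.

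Annotated genes share bases with 3 of the 10. Sesn2 overlaps Gm12981 on the same strand, which was listed at 0.501 TPM or less. Bax shares 915 bases with Gm45808 on the same strand, and Cdkn1a lies across from AC167363.2 on the opposite strand, and no level of either is given here. The Trp53 start faces that of Wrap53 on the opposite strand, with 109 bases between the RefSeq starts, and the Trp53 decamer printed above lies between them. Wrap53, which encodes a Cajal body protein of telomerase, had 10.4 to 22.7 TPM, and its r with Trp53 was 0.66 over 9 mice (Spearman's rho 0.77). That correlation is across mice of a gene chosen for its position and is given as a description.

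Ordered by mean TPM, the levels ran from Bax through Phlda3, Trp53, Cdkn1a, Mdm2, Ccng1, Sesn2, Bbc3 and Zmat3 to Eda2r, and 7 of the 10 had a mean of 10 TPM or more. TPM divides by length, so levels can be compared between genes on this scale. Neighbours in the order were compared within mice on the log2(TPM + 1) scale by an exact two-sided sign-flip permutation test, 9 comparisons in all with unadjusted p-values, whose smallest possible p is 0.0039. The pairs and their direction came from ordering these same values, so these p-values are descriptions and not tests of comparisons set beforehand. An exact p under 0.05 was found between Ccng1 and Sesn2 (1.08, exact p = 0.0078, Ccng1 higher in 8 of 9 mice), Sesn2 and Bbc3 (0.78, exact p = 0.016, Sesn2 higher in 8 of 9 mice) and Mdm2 and Ccng1 (0.46 with an SD over mice of 0.58, exact p = 0.047, Mdm2 higher in 7 of 9 mice). Zmat3 was above Eda2r in 8 of 9 mice, which is given with no test because Eda2r passed the filter through tumor 8 alone. The steps from Bax to Phlda3 (exact p = 0.055), from Trp53 to Cdkn1a (exact p = 0.098) and from Bbc3 to Zmat3 (exact p = 0.13) did not pass. Phlda3 and Trp53, and Cdkn1a and Mdm2, had the opposite order in their log2 means, with differences of -0.26 (exact p = 0.53) and -0.32 (exact p = 0.46).

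The labels set no comparison among these tumors, and the question addressed here is whether the targets varied with Trp53 or with each other. No target was shown to vary with Trp53. Every gene was regressed on Trp53 over 9 mice with limma, and of 16778 genes 0 had an adjusted p under 0.05 (Benjamini-Hochberg over all genes), a share of 0%, and 1548 genes, 9.23%, had an unadjusted p under 0.05. Among the 9 targets the limma test called 0, and 1, Sesn2, had an unadjusted p under 0.05. The exact permutation test of the pairings gave a p under 0.05 for Pearson's r in 0 of the 9 and for Spearman's rho in 1, Zmat3. The share of all genes that passes this exact test was not computed.

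The 9 values of r with Trp53 had a median of -0.30, with 2 above and 7 below 0, beside a median of 0.072 over all genes, and the median was -0.064 without the mice of tumors 2 and 9. Sesn2 had the lowest, -0.62 (exact p = 0.082; rho -0.38, exact p = 0.31; limma adjusted p = 0.53). Without the mouse of tumor 9, which had the lowest Trp53 and the highest Sesn2, it was -0.15. Phlda3 had the highest, 0.49 (exact p = 0.18; rho 0.017), and it was -0.36 without the mouse of tumor 9, which had the lowest value of both genes. Zmat3 had r = -0.49 (exact p = 0.17; limma adjusted p = 0.69) and rho = -0.73 (exact p = 0.031). Leaving out the mice of tumors 9 and 7, the 2 farthest from the median of Trp53, gave r = -0.47 for Zmat3 and -0.49 for Sesn2. Cdkn1a, the target most used as a readout of p53, had r = -0.09 with Trp53 (exact p = 0.81), which was -0.54 without the mice of tumors 9 and 7 and 0.18 without that of tumor 2. Mdm2 had r = -0.20 (exact p = 0.59), which ran from -0.60 without the mouse of tumor 9 to 0.18 without that of tumor 7, and was -0.65 without those of tumors 2 and 9.

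**Figure D2:**
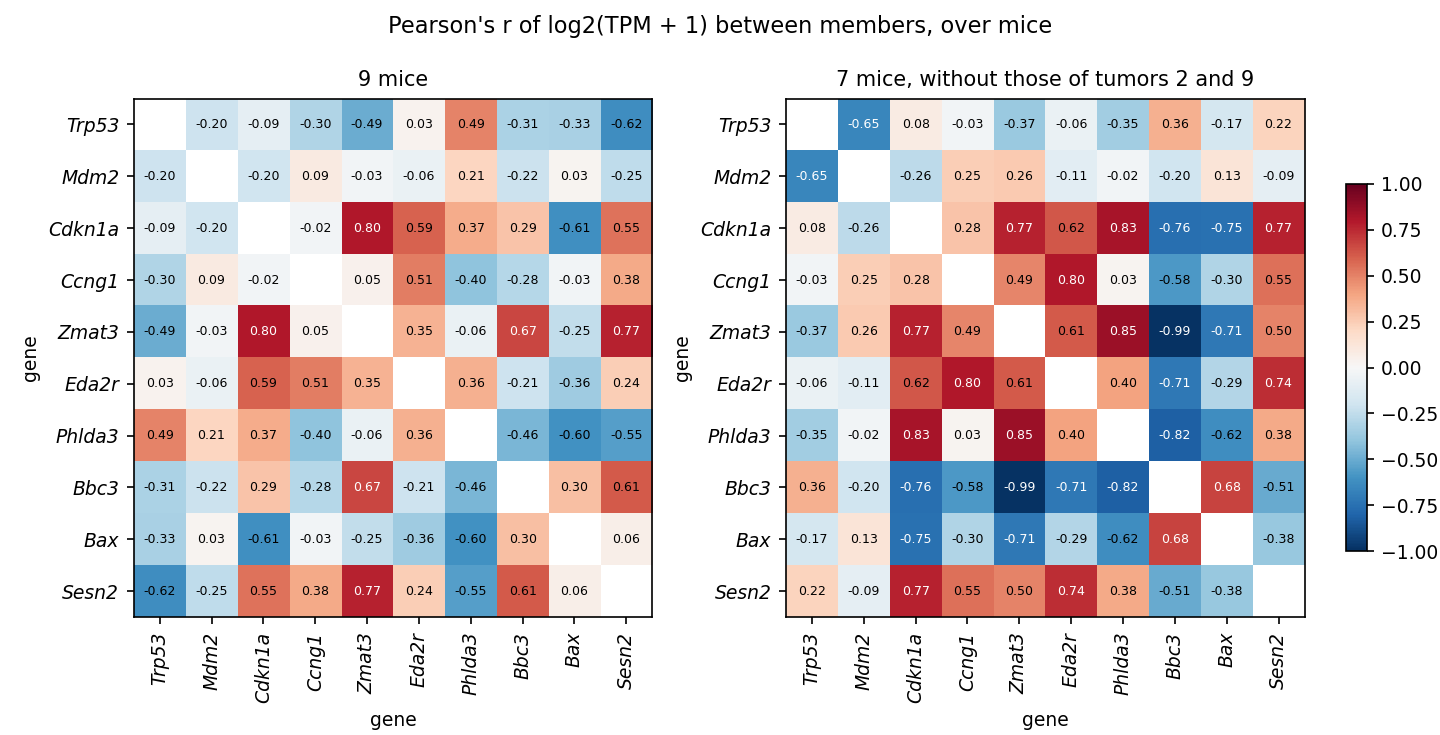
Pearson's r of log2(TPM + 1) between every pair of the 10 genes, over 9 mice on the left and over the 7 mice left without those of tumors 2 and 9 on the right, with red above 0 and blue below 0. The Trp53 row holds values between -0.62 and 0.49 on the left, and the Zmat3 and Bbc3 cell turns from 0.67 on the left to -0.99 on the right.

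The targets were not shown to vary as one group. The 36 pairs among the 9 targets had r between -0.61 and 0.80, with 19 above and 17 below 0, a median of 0.038 and a median rho of -0.017. Without the mice of tumors 2 and 9 the median r was 0.079. Each target served in turn as the regressor for all other genes in limma. The share of all genes called at an adjusted p under 0.05 was 0% for Mdm2, Cdkn1a, Ccng1 and Bax, 0.0536% for Phlda3, 0.513% for Eda2r, 1.06% for Sesn2, 3.65% for Bbc3 and 8.89% for Zmat3. At an unadjusted p under 0.05 the shares were 0.846% for Mdm2, 3.33% for Bax, 6.66% for Eda2r, 9.23% for Ccng1, 15.3% for Phlda3, 17.4% for Cdkn1a, 20.2% for Sesn2, 20.7% for Bbc3 and 26.6% for Zmat3. No pair was called with each gene in turn as regressor (0 of 36 pairs), 1 was called in 1 direction only, and 3 had an unadjusted p under 0.05 in both directions. The exact permutation test gave a p under 0.05 for r in 2 pairs and for rho in 4. The share of all gene pairs that passes in both directions or by the exact test was not computed. These counts are therefore not set against genes in general.

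The pair called in 1 direction was Zmat3 and Cdkn1a. With Zmat3 as regressor, Cdkn1a had a limma adjusted p of 0.041, and with Cdkn1a as regressor Zmat3 had an adjusted p of 0.20, where 8.89% and 0% of all genes passed. Their r was 0.80 (exact p = 0.0071) and their rho 0.67 (exact p = 0.059). The r was 0.46 without the mice of tumors 2 and 8, the 2 farthest from the median of Cdkn1a, and 0.57 without the mouse of tumor 2 alone. No gene at all was called on Zmat3 without the mouse of tumor 2. The call of Cdkn1a on Zmat3 was also lost with ranks, with no filter on low values, and on leaving out the mouse of tumor 1, 5, 6 or 8 or that of tumors 10 to 12.

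Zmat3 and Sesn2 had r = 0.77 (exact p = 0.031; rho 0.62, exact p = 0.086), and the limma adjusted p was 0.060 with Zmat3 as regressor and 0.13 with Sesn2. Sesn2 passed on Zmat3 with a pseudocount of 0.1 (limma adjusted p = 0.047, beside 13.1% of all genes), with each tumor as a unit (0.019, beside 14.4%) and without the mouse of tumor 9 (0.026, beside 18.2%), and without that mouse Cdkn1a passed on Sesn2 (0.048, beside 2.1%). Their r stayed between 0.64 and 0.88 when each mouse was left out, and was 0.50 without the mice of tumors 2 and 9. Zmat3 and Bbc3 had r = 0.67 (exact p = 0.10), but rho = -0.05, and r was -0.55 without the mouse of tumor 2 and -0.99 without those of tumors 2 and 9. In that pair 1 mouse set the sign, since tumor 2 had the lowest value of both genes.

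**Figure D3:**
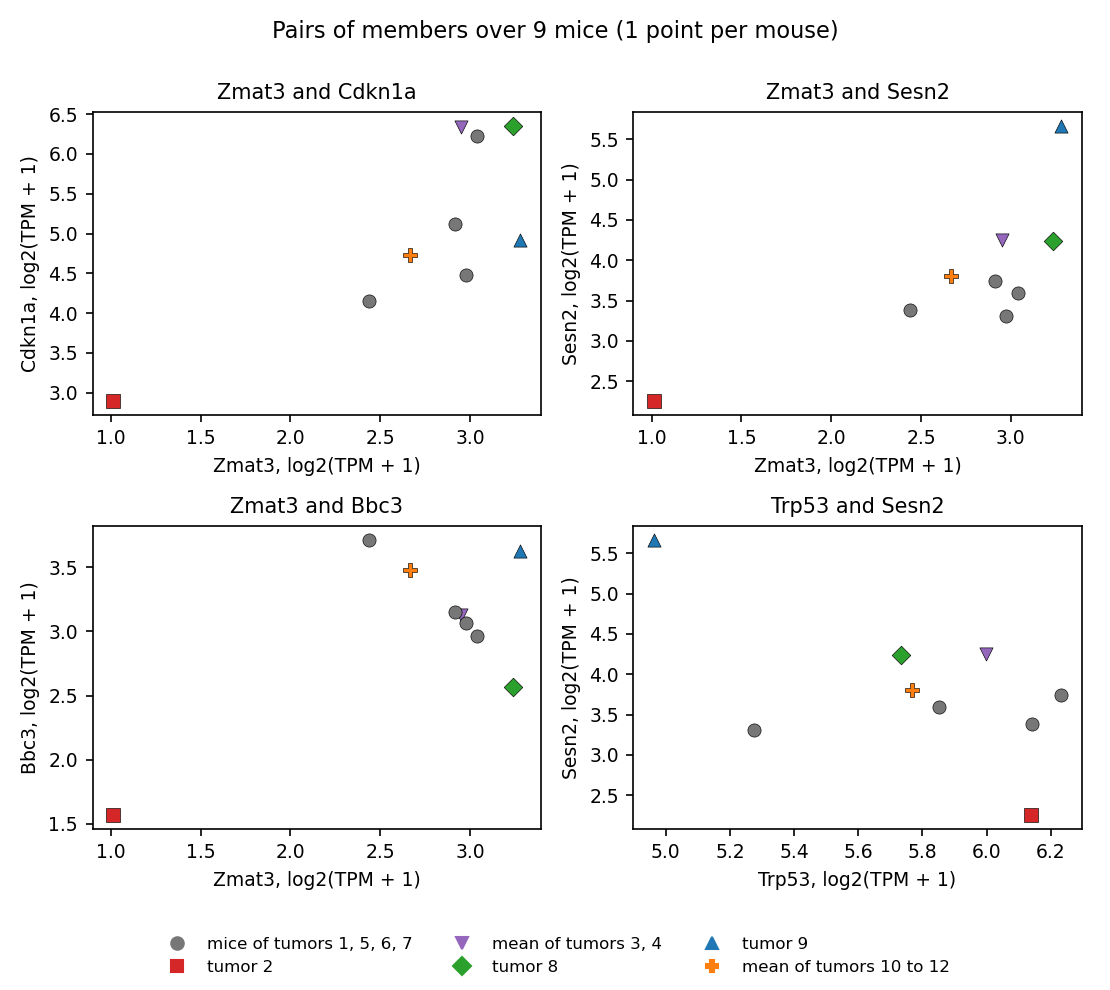
Pairs of members on log2(TPM + 1) axes, 1 point per mouse and 9 mice per panel: Zmat3 against Cdkn1a, Sesn2 and Bbc3, and Trp53 against Sesn2. The mouse of tumor 2 is the lowest point for Zmat3 in 3 panels, and the mouse of tumor 9 joins the lowest Trp53 to the highest Sesn2.

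In the 4 pairs with an exact p under 0.05 for rho, Cdkn1a ranked with Eda2r (rho 0.80, a description) and with Sesn2 (rho 0.70, exact p = 0.043), and Phlda3 ranked against Bbc3 and against Bax (rho -0.73 and exact p = 0.031 for both). The limma adjusted p of the 3 pairs without Eda2r was 0.31 or more with either gene as regressor. Among the 7 mice left without those of tumors 2 and 9, chosen apart because these tumors differ from the rest, Cdkn1a, Zmat3, Phlda3, Eda2r and Sesn2 were all positively correlated with one another, with r between 0.38 and 0.85. Bbc3 had r between -0.51 and -0.99 with these 5 genes, and Bax between -0.29 and -0.75. Those 5 genes were put together after their values were seen, so this is a description of 7 mice with no test. In these 7 mice the 5 genes had r between 0.30 and 0.83 with the median of the fibroblast markers. With that of the epithelial markers they had r between -0.26 and -0.95. Bbc3 had -0.38 and 0.68 with these medians, and Bax -0.057 and 0.21. Tumor 8 is among the 7, and the part of cell composition was not tested.

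Levels of the members were not shown to be more alike in tumors of the same mouse. For every gene the mean absolute log2 difference of the 4 pairs of tumors that share a mouse was set against that of the 62 other pairs, and the animal labels were permuted in all 7920 ways (one-sided exact permutation test, smallest p 0.00013). The test called 0 of the 10 members and 0 of 16779 genes after adjustment, a share of 0%. The mean difference was smaller within a mouse for 91.3% of all genes, and an unadjusted p under 0.05 was found in 4 of the 10 members and in 26.3% of all genes. The 4 were Sesn2 (0.19 within a mouse against 0.90 between mice, exact p = 0.013), Ccng1 (0.18 against 0.57, exact p = 0.020), Phlda3 (0.41 against 1.35, exact p = 0.033) and Bbc3 (0.20 against 0.65, exact p = 0.040). Cdkn1a was 52.5, 19.1 and 16.5 TPM in tumors 10, 11 and 12, a 3.18-fold range, and differed 1.30-fold between tumors 3 and 4. The low Eda2r differed 4.21-fold and 2.53-fold in these mice, and the other 8 members stayed within 1.76-fold in both.

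Lists for cell types and the cell cycle were set beside the members because bulk tumor pieces mix cell types. limma called 0 of the 10 members on any of 4 list medians, where 1.82% of all genes were called on the cell cycle list, 3.72% on the epithelial list and 0% each on the fibroblast and macrophage lists. Unadjusted p-values under 0.05 were found for 2 members on the cell cycle list, 1 on the epithelial list, 2 on the fibroblast list and 1 on the macrophage list, beside 16.4%, 19%, 8.95% and 14.5% of all genes. In these 40 relations the exact permutation test of r gave a p under 0.05 in 5, and that of rho in 2, Eda2r and Sesn2 on the fibroblast list (rho 0.72 and exact p = 0.037 for Sesn2), and Eda2r was among the members counted for that list in each case. How many of all genes pass these exact tests was not computed.

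Bbc3 had r = 0.88 with the epithelial list (exact p = 0.0065; rho 0.50, exact p = 0.18; limma adjusted p = 0.060), r between 0.69 and 0.91 when each mouse was left out, 0.68 without the mice of tumors 2 and 9, and 0.04 without the mice of tumors 2 and 8, which are the 2 farthest from the median of that list. It also had r = 0.76 with the macrophage list (exact p = 0.026; rho 0.43; limma adjusted p = 0.27), which was 0.38 without the mouse of tumor 2 and -0.084 without the mice of tumors 2 and 5, the 2 farthest from the median of that list. Eda2r had r = 0.78 and rho = 0.73 with the fibroblast list, and r between 0.76 and 0.83 when each mouse was left out, given as a description. Cdkn1a had r = 0.76 with the fibroblast list (exact p = 0.018; rho 0.62, exact p = 0.086; limma adjusted p = 0.40), between 0.62 and 0.86 when each mouse was left out and 0.46 without the mice of tumors 8 and 2, the 2 farthest from the median of that list. The fibroblast sum was highest in tumor 8, where Eda2r was 8.96 TPM and Cdkn1a 81.0 TPM, and lowest in tumor 2, where they were 0.037 and 6.45 TPM. Whether these transcripts came from fibroblasts was not tested.

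Levels of the 10 cell cycle genes repressed through p21 were not shown to follow Cdkn1a, whose r with the list median was -0.18 (exact p = 0.64; rho -0.52, exact p = 0.16), with -0.50 without the mouse of tumor 9 and 0.065 without that of tumor 2. Sesn2 had r = -0.80 with that list (exact p = 0.019; rho -0.60, exact p = 0.097; limma adjusted p = 0.10) and 0.053 without the mice of tumors 2 and 9. Phlda3 had r = 0.75 (exact p = 0.065; rho 0.17; limma adjusted p = 0.12) and -0.085 without the mouse of tumor 9. Trp53 had r = 0.59 (exact p = 0.099, rho 0.23, limma adjusted p = 0.40) and -0.23 without the mouse of tumor 9. On Trp53 limma called 0 of the 10 genes, and 5 had an unadjusted p under 0.05, all running with Trp53, beside 9.23% of all genes. In tumor 9 the list was low as a whole, with Bub1, a spindle checkpoint kinase, at 5.64 TPM against 24.3 TPM or more elsewhere and Mki67, the gene of the Ki67 antigen, at 33.0 TPM. Bub1 was the 1 gene of the 10 called on Sesn2 (lower, r = -0.89, limma adjusted p = 0.046, beside 1.06% of all genes), and 0 of the 10 were called with ranks, with no filter, or without the mouse of tumor 1, 5, 6, 7 or 9 or that of tumors 10 to 12, where at most 2.1% of all genes were called. The count was 2 with a pseudocount of 0.1, after rescaling by the median ratio, and without the mouse of tumor 2, of tumors 3 and 4 or of tumor 8, 3 after rescaling without mitochondrial genes and 4 with each tumor as a unit, beside 1.10% to 5.07% of all genes. The highest means of the list were Birc5 (126 ± 52.3 TPM), Mki67 (84.2 ± 43.3 TPM) and Cdk1 (79.9 ± 34.4 TPM) and the lowest Cdc25c (16.9 ± 7.32 TPM), Bub1 (33.1 ± 17.3 TPM) and Plk1 (48.7 ± 19.7 TPM; SD, n = 9 mice for each).

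A further list of 36 p53 targets, of which 35 passed the filter, was likewise not shown to vary in a common direction. On Trp53 limma called 0 of the 35, and 6 had an unadjusted p under 0.05, of which 3 ran with Trp53 and 3 against it, beside 9.23% of all genes. Their median r with Trp53 was -0.059. On Zmat3 8 were called, 3 higher (Fas, Plk3 and Tnfrsf10b) and 5 lower (Btg2, Ephx1, Pidd1, Ppm1d and Psrc1), beside 8.89% of all genes. On Bbc3 3 were called, Perp higher and Btg2 and Ephx1 lower, beside 3.65% of all genes. Without the mouse of tumor 2 the count was 0 on both, where 0% of all genes were called. On each of the other 8 members 0 were called.

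The further targets were often at an extreme in tumor 2, as were genes in general. Of the 35, 12 had their highest level of the 12 tumors there and 7 their lowest, and of all genes tested 20.4% were highest and 31.3% lowest in tumor 2. Btg2, an anti-proliferative gene, was 130 TPM in tumor 2 and 27.1 TPM in the next highest tumor, and Ephx1, microsomal epoxide hydrolase, was 90.1 and 30.8 TPM. Psrc1 was 53.7 TPM in tumor 2 and 22.7 TPM in the next tumor, Pidd1, a scaffold of the PIDDosome, reached 21.9 TPM in tumor 2, and Ppm1d, the phosphatase WIP1 that dampens p53 signalling, was 25.5 and 20.3 TPM. The lowest included the death receptors Fas (0.474 TPM) and Tnfrsf10b (1.60 TPM), the kinase Plk3 (3.42 TPM), and Perp, a desmosome-associated gene of stratified epithelia, which was listed at 0 in tumor 2, had 0.445 TPM in tumor 8 and reached at least 43.1 TPM elsewhere.

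In tumor 9, 6 of the 35 further targets had their highest level and 8 their lowest, beside 14.1% and 20.7% of all genes tested. Gadd45a, a growth arrest and DNA damage gene, was 857 TPM there and 35.1 to 106 TPM in the other tumors, and Fas was 67.6 TPM against 26.4 TPM or less. Tumor 9 also had the lowest Plk2 (4.30 TPM, against 18.0 TPM or more) and the lowest Ddit4 (50.1 TPM, against 79.1 TPM or more). The most abundant further targets were Rps27l, a ribosomal protein gene (262 ± 49.6 TPM), Gadd45a (145 ± 268 TPM) and Ddit4, also called REDD1 (144 ± 44.5 TPM), with the place of Gadd45a set by tumor 9, since its median over tumors was 52.4 TPM. The lowest means were those of the long noncoding RNA Trp53cor1 (0.234 ± 0.154 TPM), Gdf15 (1.57 ± 1.03 TPM) and Cpt1c (4.42 ± 2.54 TPM), and the largest log2 SDs those of Perp (2.68), Ak1 (1.74) and Fas (SD, n = 9 mice throughout).

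**Figure D4:**
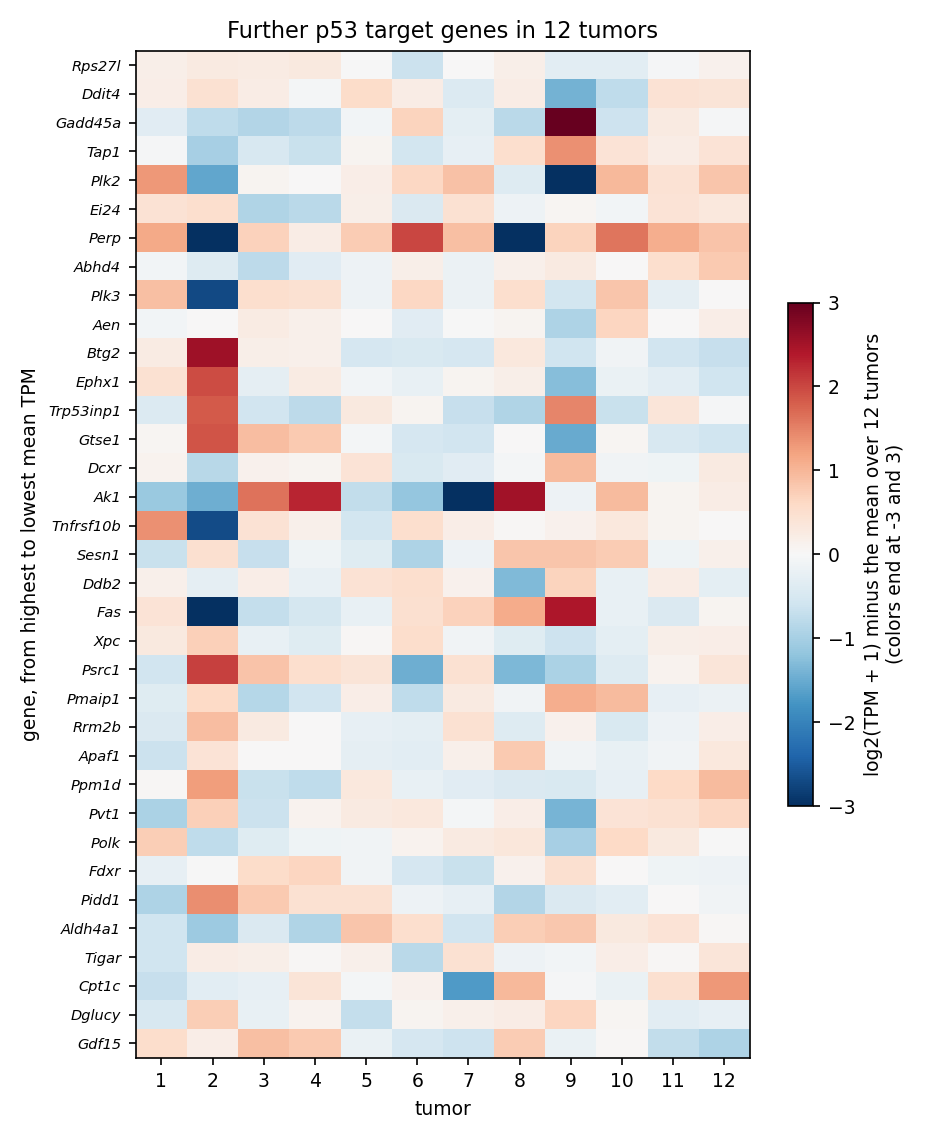
The 35 further p53 target genes with a mean of at least 1 TPM, 1 row per gene and 1 column per tumor, colored by log2(TPM + 1) minus the gene's mean over the 12 tumors and ending at -3 and 3. Tumor 2 holds both the deepest blue (Perp, Fas) and several of the deepest red (Btg2, Ephx1, Psrc1) cells, and tumor 9 is red for Gadd45a and Fas and blue for Plk2.

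Regulators of p53 were read in the same way, and of the 15 on the list 0 were called on Trp53. Cdkn2a, whose locus encodes p16INK4A and the MDM2 antagonist ARF, varied most, with a log2 SD of 1.74. It was 7.33 TPM in tumor 9, 77.9 TPM in the next lowest tumor, 216 TPM in the median and 483 TPM in tumor 8, and a value per gene does not separate its 2 products. Its r with Trp53 was 0.78 (limma adjusted p = 0.45), and tumor 9 was lowest for both. Mdm4, the MDM2 partner that blocks p53 transactivation, had 35.7 to 102 TPM and Usp7, the deubiquitinase of MDM2 and p53, 81.6 to 123 TPM, the smallest log2 SD of the list (0.16). Chek1, the checkpoint kinase CHK1, was called lower on Sesn2 (r = -0.91, limma adjusted p = 0.049, beside 1.06% of all genes), and was called only without the mouse of tumors 3 and 4 or that of tumor 8 when each mouse was left out in turn. The relative Trp63 varied between tumors, with 13.6 to 15.5 TPM in tumors 6, 7 and 12, 5.48 TPM in tumor 5, a median of 0.633 TPM and a lowest value of 0.022 TPM in tumor 2, and Trp73 was at 0.096 TPM or less.

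The genes whose pattern was most like that of 3 members were ranked by Pearson's r over 9 mice among 10765 genes with a mean of at least 10 TPM. For Trp53 these included Ftsj1 (r = 0.94), Ttc4 (0.93), Gm6181 (0.92) and Ddit4 (0.92), and Ddit4 is on the list of further targets. For Cdkn1a they were Adam15 (0.97), a membrane-bound disintegrin metalloproteinase that lay between 18.8 and 137 TPM, Atp6v0a2 (0.95), Polr3d (0.94), Klhl26 (0.94) and Ehd4 (0.94). For Mdm2 they were Cct2 (0.92), Lsm8 (0.92), Cand1 (0.91), Rnf41 (0.91) and Cln6 (0.89). None of these genes passed limma's adjusted p, whose lowest value among them was 0.14 for Adam15, and genes picked as the highest of many have high r by that choice.

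Of the 5 genes most like Mdm2, 3 were on its own chromosome 10, with Cct2 0.638 Mb before and Cand1 1.51 Mb and Rnf41 10.7 Mb after it. The genes around every member were therefore compared, a comparison added after this was seen. The 19 genes within 2 Mb of Mdm2 had a median r of 0.34 with it, and all genes tested had 0.047. These 19 include Cct2 and Cand1, whose high r prompted the comparison, so the value for Mdm2 is partly set by that choice. The 110 genes within 2 Mb of Bax had a median of 0.40 against 0.0043, and 86.4% of them were positive against 50.4% of all genes. Phlda3 had 0.32 over 52 genes against 0.091, Trp53 had 0.12 over 115 genes against 0.072, and Zmat3, Bbc3 and Eda2r were below their medians over all genes, at -0.089, -0.074 and -0.056. Without the mice of tumors 2 and 9 the window medians were 0.13 for Zmat3, 0.47 for Bbc3, 0.38 for Trp53, 0.46 for Mdm2 and 0.52 for Bax, so the sign turned for Zmat3 and Bbc3. Genes in a window share the same 9 mice and are not independent, so no test is given.

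**Figure D5:**
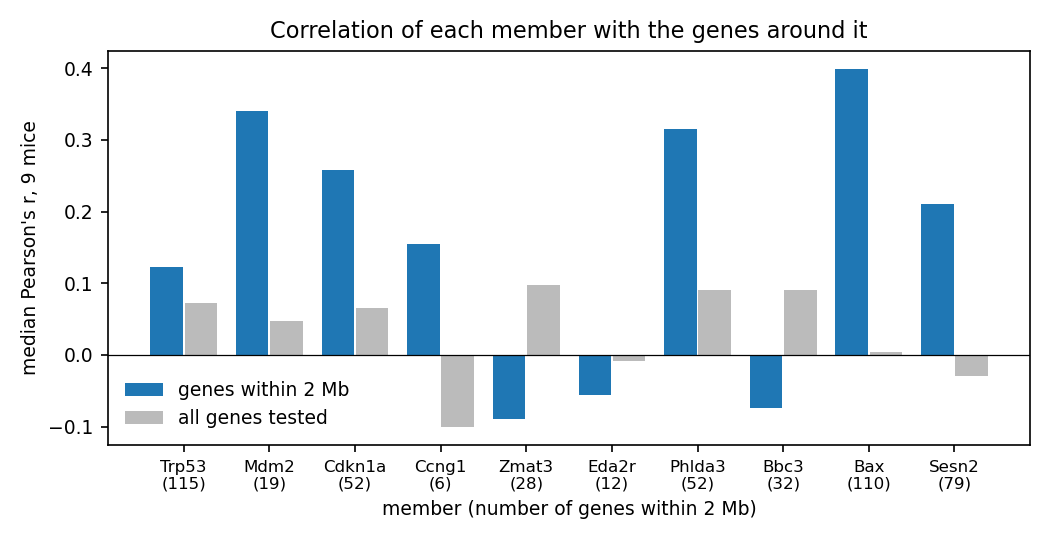
Median Pearson's r over 9 mice between each member and the genes within 2 Mb of it (blue) or all genes tested (gray), with the number of genes in the window under each name. Bax and Mdm2 have the tallest blue bars, 0.40 and 0.34, and the blue bars of Zmat3, Bbc3 and Eda2r lie below 0. The Mdm2 window includes Cct2 and Cand1, whose high r prompted the comparison.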

How the data were processed

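RNA from 12 tumors had been sequenced by the authors as 75-bp paired-end reads from stranded mRNA libraries, trimmed with fastq-mcf, aligned to the GRCm38 transcriptome with HISAT2 and quantified with StringTie 2.1.6. The deposited values are TPM per Ensembl gene, without pooling of tumors; they sum to 999770 to 999909 per tumor, and keep no read number, so depth and counting error are unknown. TPM is relative, and very abundant genes lower all others.

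From these, log2(TPM + 1) was computed and tumors of a mouse were averaged, giving n = 9 mice. Genes with a mean of at least 1 TPM over tumors were tested (16779). Regressions used limma 3.58.1 (R 4.3.3; moderated with a trend) with Benjamini-Hochberg adjustment over all genes. Correlations were tested by two-sided exact permutation of 362880 pairings. Scripts were tested on simulated data. Locations came from GENCODE vM21 and start-site windows from RefSeq, both on GRCm38. Other steps ran in Python 3.11.15 with scipy 1.17.1, pandas 2.3.3 and numpy 2.4.6, and plots in matplotlib 3.10.9.

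The members, lists and tests were chosen with earlier results of these data known. Named genes are the 10 members, the 5 genes most like Trp53, Cdkn1a and Mdm2, the 3 highest, 3 lowest and 3 most variable means of each further list, p53 regulators and family genes, and genes called; others were chosen after their values were seen. One gene that this rule names is not reported here. Alternatives were a pseudocount of 0.1, no filter, 2 rescalings, ranks, each tumor as a unit, leaving out each mouse, and leaving out the mice of tumors 2 and 9.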

Additional observations from a re-analysis of the deposited data

Results flagged for a closer look

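Dixon's criterion for 1 value far from the rest was applied to the 10 members and 4 list medians over 9 mice, and 4 of these 14 were marked. Chance marks about 1 in 20 groups, but the share of all genes tested that the criterion marks was not computed. The count is therefore not read as a trait of the members. Of all genes tested, 31.3% were lowest in tumor 2 and 20.7% in tumor 9. The marks of Phlda3 and of the cell cycle list lie in the same mouse, so they are not independent. One of the 4, Eda2r, had passed the filter on low values through the marked mouse alone, so its mark is not independent of that filter. On the log2(TPM + 1) scale Zmat3 was 1.01 in the mouse of tumor 2, and the nearest mouse had 2.44. Eda2r was 3.32 in the mouse of tumor 8, and the nearest mouse had 0.94. Phlda3 was 2.55 in the mouse of tumor 9, and the nearest mouse had 4.91. The median of the cell cycle genes repressed through p21 was 4.43 in the mouse of tumor 9, and the nearest mouse had 5.72. Epithelial markers were near 0 in tumor 2 and low in tumor 8, and the part of cell composition in these values was not tested.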

How the results depend on the processing

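Over 33 results, 501 alternative values were computed, of which 462 were classed as the same as the main value, 4 as stronger, 26 as moved and 9 as reversed. The same class holds values that kept their direction and side of the threshold. For the counts of further targets called, it holds counts that were equal or of similar size. The number of members correlated with the epithelial list was 0 and became 1 with a pseudocount of 0.1 (Bbc3, beside 6.83% of all genes), 1 with each tumor as a unit (Bbc3, beside 8.25%) and 1 without the mice of tumors 2 and 9 (Eda2r, which passed the filter through tumor 8 alone, beside 3.94%). When each mouse was left out it ranged from 0 to 2, with 1 without the mouse of tumor 2 (Eda2r, beside 1.65% of all genes) and 2 without that of tumor 8 (Bbc3 and Zmat3, beside 15.6%). The number correlated with the cell cycle list ranged from 0 to 1, with 1 (Phlda3, beside 2.18% of all genes) without the mouse of tumor 1. The number of members alike within a mouse, of those correlated with Trp53, with the fibroblast list or with the macrophage list, and of target pairs called with each gene as regressor was 0 under every alternative run. For likeness within a mouse this says nothing without the mouse of tumors 3 and 4 or that of tumors 10 to 12, where the smallest possible p was 0.0083 or 0.028 and the 1749 or 1234 genes under 0.05 were too few for any adjusted p to pass. The r of Zmat3 and Bbc3 turned to -0.05 with ranks, -0.55 without the mouse of tumor 2 (range without each mouse -0.55 to 0.80) and -0.99 without the mice of tumors 2 and 9. Without those 2 mice r also turned to 0.22 for Trp53 and Sesn2, -0.35 for Trp53 and Phlda3 (-0.36 to 0.66 without each mouse), 0.053 for Sesn2 and the cell cycle list, and -0.037 for Phlda3 and that list (-0.085 to 0.88 without each mouse). Of the further targets, between 0 and 9 were called on Zmat3 and between 0 and 3 on Bbc3 without each mouse, where 0% to 18.2% and 0% to 8.31% of all genes were called, with 9 on Zmat3 without that of tumor 9 (18.2%), 0 on both without that of tumor 2, and between 0 and 2 on Sesn2 (0.012% to 5.07% of all genes), counts added after the data were seen. On Zmat3 the 8 became 4 without the mouse of tumor 6 or that of tumors 10 to 12, 5 without that of tumor 5 or 7, 4 with no filter and 0 with ranks, and on Bbc3 the 3 became 1 without the mouse of tumor 6, of tumors 3 and 4 or of tumors 10 to 12, 1 with no filter and 0 with ranks. The median r of genes near Mdm2 was also added then, and its windows include the prompting genes Cct2 and Cand1. This median was 0.46 without the mice of tumors 2 and 9 and 0.28 within 5 Mb. Near Bbc3 it went from -0.074 to 0.47 and 0.11 under these, near Zmat3 from -0.089 to 0.13 and 0.079, near Trp53 from 0.12 to 0.38 and 0.077, near Cdkn1a from 0.26 to 0.17 and -0.042, and near Eda2r from -0.056 to -0.10 and 0.043. For these turned or moved values the cause was not tested, beyond the mouse that each leaves out. No paired analysis was possible because no groups were compared, and the sign-flip test pairs genes within a mouse, not samples. TPM keeps no read number, so low values such as those of Eda2r cannot be given a counting error.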
